A study of Mus musculus with 8 samples.

Results

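The loci described here are those of 3 NMDA receptor subunit genes, Grin1, Grin2a and Grin2b, in Sono-seq data from mouse hippocampus. They were chosen by gene, each as a fixed window on the mm9 build: chr2:25140000-25185000 for Grin1, chr16:9560000-10010000 for Grin2a and chr6:135655000-136135000 for Grin2b. The 3 windows held 4 of the 11304 regions of the authors' count table, 2 at Grin1 and 1 each at Grin2a and Grin2b. They also held 742 of 1993373 sites obtained by merging the peaks listed in the 8 libraries. All 3 genes are read from the high to the low coordinate, so the highest 20 kb of each window was taken as the promoter end and the rest as the gene body (25.0 kb at Grin1, 430 kb at Grin2a and 460 kb at Grin2b).

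Sono-seq sequences sonicated, crosslinked chromatin without an antibody, and chromatin that shears easily gives more fragments of the selected size, so the signal is read as a map of accessible chromatin. All mice were C57BL/6J males, 2 months old, housed singly and handled daily for 3 days. The 4 conditioned mice received a single foot shock of 2 s and 1.5 mA in a new chamber and their hippocampi were taken 30 min later. The 4 control mice were handled without training and dissected at the same time of day. The hippocampus was used whole, so its neurons, glia and other cells were pooled in each library, and a change in the makeup of the tissue and a change within a cell type cannot be told apart.

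NMDA receptors are glutamate-gated, calcium-permeable channels of excitatory synapses that open when glutamate binds while the membrane is depolarised, which makes them central to hippocampal synaptic plasticity and contextual learning. Grin1 encodes GluN1, the obligatory subunit that binds the co-agonist glycine. Grin2a and Grin2b encode the glutamate-binding subunits GluN2A and GluN2B, which set channel kinetics. GluN2B predominates early in forebrain development, and GluN2A joins it as synapses mature.

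Of the 3 members, 1 (Grin1) had an entry in the table of RefSeq promoter sequences used here (GRCm38.p6), which covers 250 bases before and 50 bases after a gene's start. The Grin1 entry is at chr2:25319138-25319437 on the minus strand of that build, which differs from the mm9 build of the peak files, so it was not placed among the peaks. It is shown because the 4 listed regions of the loci all lay in the promoter ends. The 250 bases before the start are printed 5′ to 3′, with CpG dinucleotides in capitals.
Grin1: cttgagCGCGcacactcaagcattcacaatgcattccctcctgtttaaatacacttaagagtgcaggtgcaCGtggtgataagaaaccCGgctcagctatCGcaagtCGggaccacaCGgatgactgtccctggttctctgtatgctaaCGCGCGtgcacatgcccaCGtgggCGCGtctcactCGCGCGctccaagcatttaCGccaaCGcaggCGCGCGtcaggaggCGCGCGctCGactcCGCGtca
The full 300 bases had a GC content of 60.7% and held 33 CpG dinucleotides, against a median of 7 over 32851 promoters of the same length. Of those promoters, 91.4% held fewer CpG dinucleotides and 72.2% had a lower GC content. On either strand the Grin1 window held 2 matches to TGACG, the core of the cAMP response element, and 20.8% of all promoters held at least 1. It held 1 match to the GC box GGGCGG, beyond the printed stretch, and 35.7% of promoters held at least 1. There was no match in this window to the full element TGACGTCA, held by 1.79% of promoters, nor to the AP-1 motif in its forms TGACTCA and TGAGTCA, held by 5.20%. These matches describe letters in this window and are not sites of binding.

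Total counts over the 11304 regions ran from 36786183 to 83233550 per library. The normalisation factors (TMM, which scale each library to the bulk of regions) ran from 0.332 to 2.01. Control replicates 1 and 3 had the lowest factors, 0.332 and 0.509, and the lowest median region counts, 142 and 115, while the other 6 libraries had medians from 277 to 1069. These 2 libraries are both controls. The part of this difference in the results was not tested further than by leaving out single libraries or both of these controls. No library was left out of the main values.

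The 4 regions at the NMDA receptor loci all lay in the promoter ends, a density of 66.7 per Mb against 4.68 per Mb over the autosomes, and the 915 kb of gene body held 0. A region in the authors' table spans peaks whose z score reached 30, extended by 200 bp on both sides, and its carriers are the libraries with such a peak. The z score is the authors' own value for a peak. The authors' mean z of the Grin1 and Grin2b regions equals the mean over their carriers, so libraries below 30 are not in it. The equality held within 0.01 for 8335 of the 11304 regions, and it did not hold at Grin2a. The 4 regions were also the 4 sites in the windows at which at least 4 libraries reached a z of 30. This match follows largely from the rule of the list, whose regions have at least 4 carriers. In the gene bodies, 60 sites reached a z of 30 in 1 to 3 libraries and 0 of 694 in more. Over the autosomes, sites with a z of 30 in at least 4 libraries stood at 5.13 per Mb, 12385 of 1993373 sites. Within single libraries the tallest peak was not always at the promoter end: the promoter end had the higher top z in 7 of 8 libraries at Grin1, in 4 of 8 at Grin2a and in 3 of 8 at Grin2b. The highest z in the 3 windows, 105.3, was in the Grin2b body in conditioned replicate 2.

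**Figure D1:**
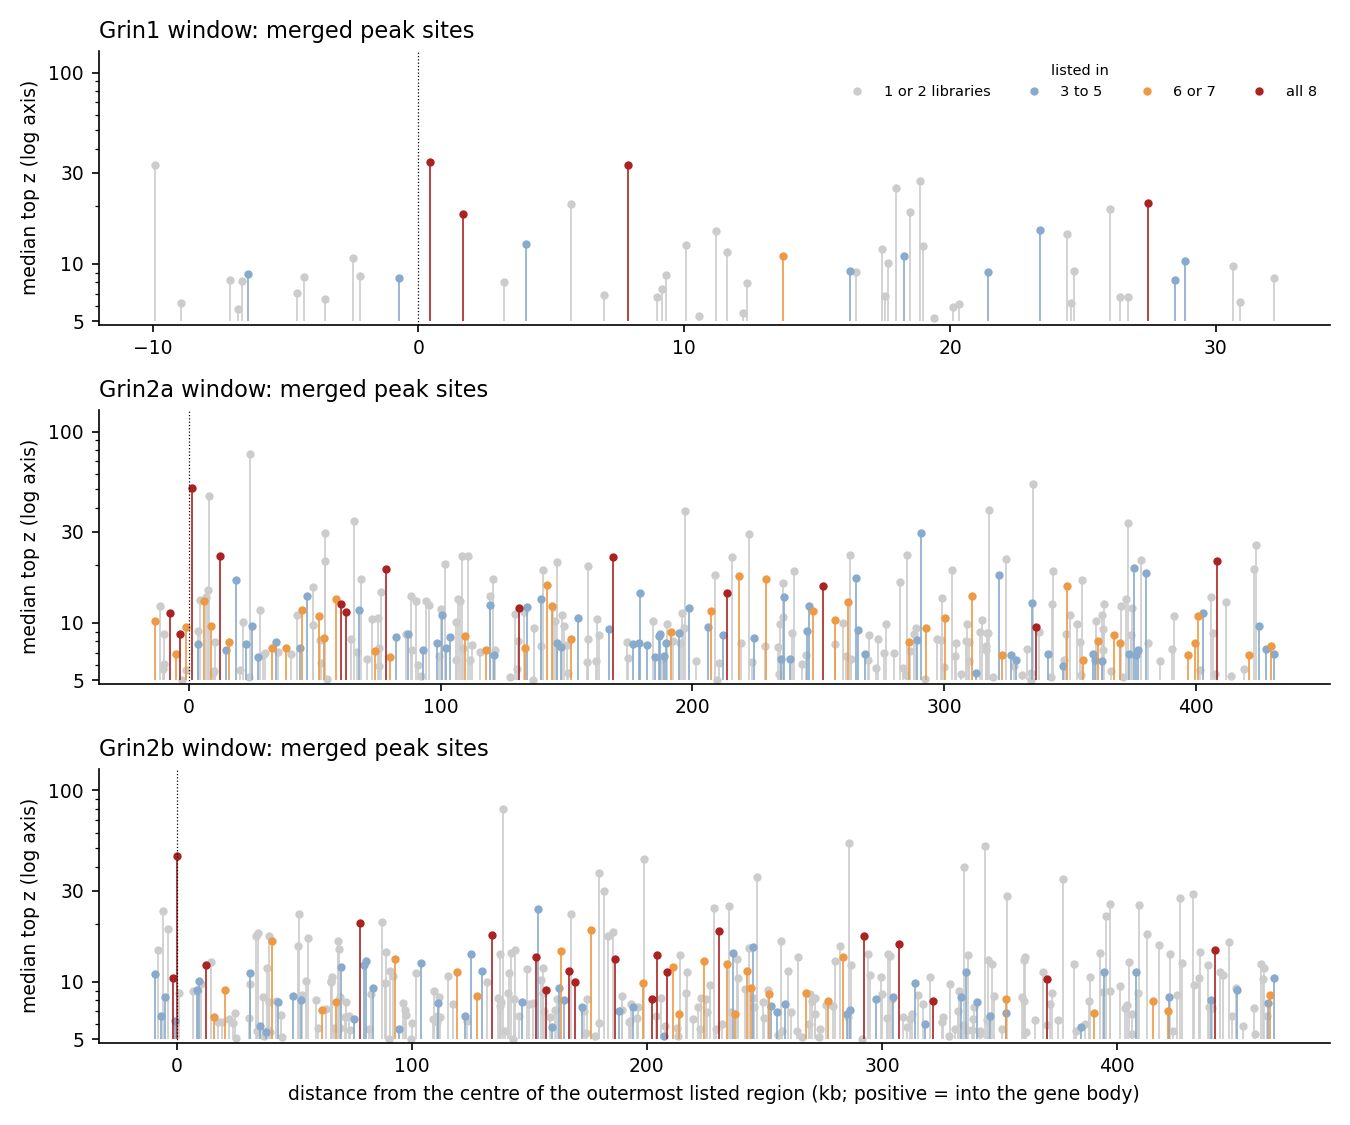
Merged peak sites of the Grin1, Grin2a and Grin2b windows by distance from the centre of the outermost listed region (kb, positive into the gene body), with the median over libraries of the top z score on a log axis and colours for the number of libraries in which a site was listed. The sites listed in all 8 libraries with the highest median z stood beside the dotted zero line and, at Grin1, also at the inner listed region, while high values in the gene bodies belonged mostly to sites of 1 or 2 libraries.

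Grin1, the obligatory subunit gene, had 2 regions in its promoter end. The outer one, nearer the top of the window, was chr2:25174259-25174915 (656 bp), with an authors' mean z of 47.1 and 6 carriers, all 4 conditioned libraries and 2 controls. Its highest z was 45.7, 25.9, 12.8 and 31.0 in the controls and 36.8, 31.3, 56.9 and 80.9 in the conditioned libraries, with each group given here and below in the order of its replicates. Conditioned replicates 3 and 4 stood above every control in z, while conditioned replicates 1 and 2 fell below control replicate 1, so the groups overlapped. The same region held 391, 448, 52 and 259 reads in the controls and 329, 228, 759 and 1306 in the conditioned libraries. As CPM (reads scaled to a common library size with TMM factors) this gave 17.8, 4.85, 2.78 and 4.36 in the controls and 4.06, 5.18, 6.56 and 7.80 in the conditioned mice. On this scale a single control, replicate 1, was far above the other 7 libraries. This library had the lowest TMM factor, 0.332. Scaled by region totals alone it had 5.91 CPM, within the 1.41 to 15.7 of the other 7. The mean was 5.90 ± 1.63 CPM (SD, n = 4) in conditioned and 7.45 ± 6.97 (SD, n = 4) in control mice. The log2 fold change, conditioned over control, was -0.33 (SE 0.56), with an adjusted p of 0.933 by the quasi-likelihood test of edgeR (Benjamini-Hochberg over all regions). Without control replicate 1 the log2 fold change at this region was 0.54, with an edgeR adjusted p of 0.691, so 1 library set its direction.

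The inner Grin1 region, chr2:25166435-25166939 (504 bp), had an authors' mean z of 45.2 and 4 carriers, 3 conditioned and 1 control, the fewest a region of the table can have. Its highest z was 17.6, 38.6, 8.87 and 15.6 in the controls and 27.2, 43.1, 49.7 and 49.5 in the conditioned libraries. Conditioned replicates 2 to 4 were above all controls and conditioned replicate 1 was below control replicate 2. In every library the peak within this region covered a single step of 50 bp. The reads numbered 95, 283, 31 and 119 in the controls and 154, 222, 520 and 444 in the conditioned libraries. The CPM values were 4.33, 3.06, 1.66 and 2.00 in the controls and 1.90, 5.04, 4.50 and 2.65 in the conditioned mice, with means of 2.76 ± 1.20 and 3.52 ± 1.49 (SD, n = 4 each). On this scale the groups overlapped. The log2 fold change was 0.35 (SE 0.53) and the edgeR adjusted p was 0.922. With 1 library left out at a time it ran from 0.13 (without conditioned replicate 2) to 0.63 (without control replicate 1).

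Grin2a, the gene of the GluN2A subunit, had the widest and the most widely carried region of the 4, chr16:9993972-9995823. At 1851 bp it was longer than 91.9% of all regions, it had an authors' mean z of 60.9, and all 8 libraries were carriers. Its highest z was 31.0, 62.6, 33.8 and 37.4 in the controls and 75.8, 38.9, 95.7 and 103.9 in the conditioned libraries. Conditioned replicates 1, 3 and 4 were above every control, and conditioned replicate 2 was below control replicate 2. All listed peaks together covered 1152, 1050, 700 and 915 bp of the region in the controls and 510, 1073, 121 and 1101 bp in the conditioned libraries, so the covered length ran from 121 to 1152 bp between animals. The reads numbered 250, 670, 263 and 359 in the controls and 964, 281, 1789 and 1491 in the conditioned libraries. After scaling, the CPM values were 11.4, 7.25, 14.0 and 6.04 in the controls and 11.9, 6.38, 15.5 and 8.90 in the conditioned mice. The means were 9.68 ± 3.70 and 10.7 ± 3.92 CPM (SD, n = 4 each), and low and high libraries occurred in both groups. The log2 fold change was 0.14 (SE 0.43) and the edgeR adjusted p was 0.964.

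Grin2b, the gene of the GluN2B subunit, had 1 short region, chr6:136122203-136122691 (488 bp). It had an authors' mean z of 59.9 and 6 carriers, all 4 conditioned libraries and 2 controls. This mean leaves out the 2 controls of lowest z, so it is not like that of Grin2a, which all 8 libraries carried. Its highest z was 13.0, 88.1, 16.9 and 42.2 in the controls and 48.7, 31.2, 71.8 and 77.4 in the conditioned libraries. The highest and the 2 lowest values were all controls, and the 2 lowest were the controls with the lowest median region counts. All listed peaks together covered 50 bp of the region in 6 libraries, 100 bp in conditioned replicate 2 and 130 bp in conditioned replicate 3. The reads numbered 57, 892, 59 and 236 in the controls and 315, 166, 711 and 760 in the conditioned libraries. The CPM values were 2.60, 9.66, 3.15 and 3.97 in the controls and 3.89, 3.77, 6.15 and 4.54 in the conditioned mice, with means of 4.84 ± 3.26 and 4.59 ± 1.10 (SD, n = 4 each). The log2 fold change was -0.09 (SE 0.51) and the edgeR adjusted p was 0.986. Without control replicate 2, the library with the highest value, the log2 fold change was 0.50 with an edgeR adjusted p of 0.818.

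**Figure D2:**
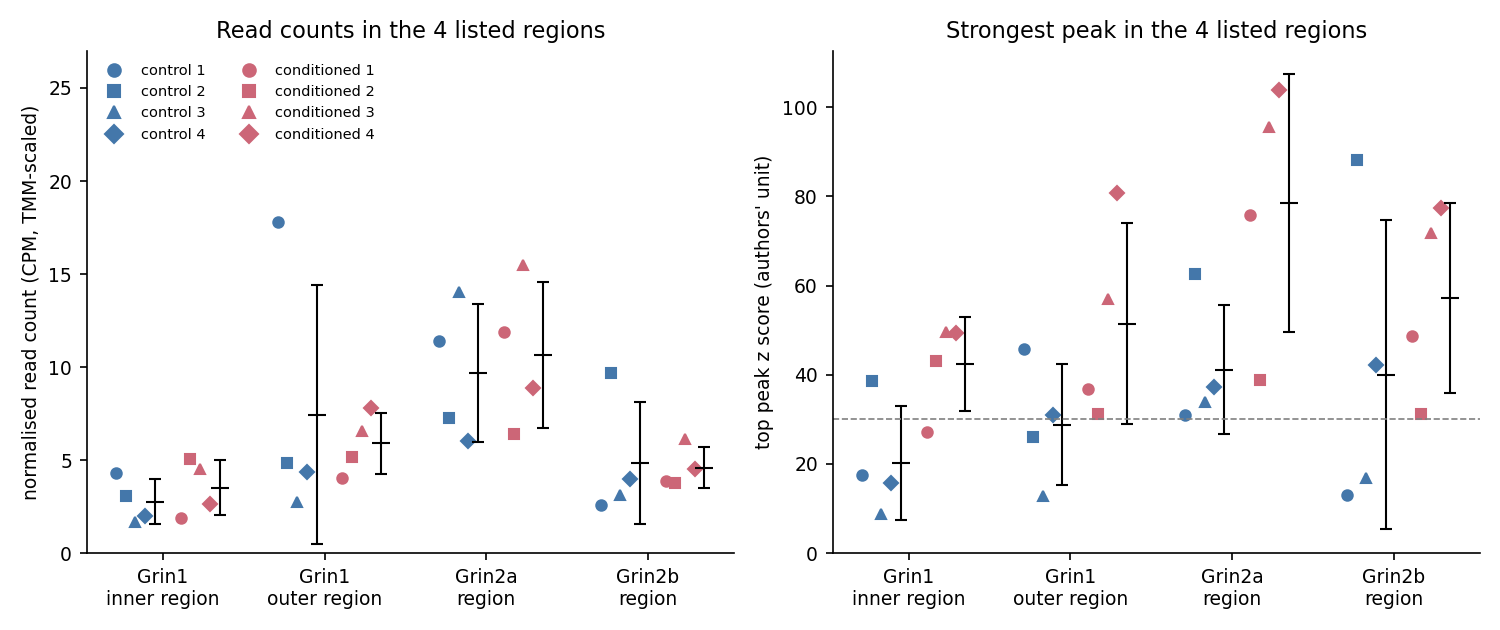
CPM with TMM factors and the top z score (authors' unit) of the 4 regions at the NMDA receptor loci, 1 point per library, with the mean and SD of the 4 control and the 4 conditioned mice and a dashed line at a z of 30. The groups overlapped at all 4 regions in both measures, and control replicate 1 stood at 17.8 CPM in the outer Grin1 region.

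Across the 4 regions, 0 passed an adjusted p of 0.05 by edgeR's quasi-likelihood test, 0 had an unadjusted p below 0.05, and 0 had CPM groups that did not overlap. Over all 11304 regions the background was 0% at the adjusted level, 7.79% at the unadjusted level and 2.40% for groups that did not overlap. DESeq2 called 0 of the 4, against 40 of 11138 regions with an adjusted p (0.359%), and limma voom called 0 of the 4 and 0 of all regions. The SEs of 0.43 to 0.56 on the log2 scale set the limit on the differences that could be seen at these loci. Scaling by region totals alone moved the median log2 fold change of all regions to 0.75, and with it the outer Grin1 region to 0.94 and the Grin2b region to 0.40, which turned both directions. The other 2 became 1.20 at the inner Grin1 region and 1.16 at Grin2a. Under this scaling 0 of the 4 passed, against 6 of all regions (0.0531%). With control replicates 2 and 4 as the only controls, the log2 fold change was 0.34 at the outer and 0.46 at the inner Grin1 region. It was 0.67 at Grin2a and -0.59 at Grin2b. With these controls 0 of the 4 and 0 of all regions passed.

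Per kb of region, so that regions of different length can be compared, the outer Grin1 region had the highest mean level over the 8 libraries, 10.2 ± 7.25 CPM per kb (SD, n = 8). It had 27.2 in control replicate 1, against 4.23 to 11.9 in the other libraries, so its first place rested on that library. Grin2b followed with 9.66 ± 4.62, the inner Grin1 region with 6.24 ± 2.61 and Grin2a with 5.50 ± 1.93. Each neighbour in this order differed from the next by less than the larger of their SDs. The order of the raw counts within a library was another, since the Grin2a region is the longest. There the median percentile among all regions was 72.7 for Grin2a, 39.9 for the outer Grin1 region, 30.0 for Grin2b and 18.1 for the inner Grin1 region.

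The highest z in the promoter end was compared between the groups as a second readout. Over the autosomes, among sites listed in all 8 libraries, every conditioned library was above every control at 3.44%, with the reverse at 0.123%. A higher z in the conditioned libraries was thus not particular to these loci, and the numbers of carriers rest on the same z. On the log2 scale the difference, conditioned minus control, was 0.16 (SE 0.29) at Grin1, 0.90 (SE 0.39) at Grin2a and 0.99 (SE 0.64) at Grin2b. By exact two-sided permutation of the group labels the p-values were 0.629, 0.0571 and 0.229 (n = 4 per group), and 0.629, 0.171 and 0.343 after adjustment over the 3 loci. The smallest p that 4 against 4 libraries can give is 0.0286. The Grin2b difference was 0.57 without control replicate 1, 1.49 without control replicate 2 and 0.0050 with control replicates 2 and 4 as the only controls, so its size rested on the controls used. With z divided by each library's 99th percentile, the differences were -0.04 at Grin1, 0.69 at Grin2a and 0.78 at Grin2b, so the direction at Grin1 turned, and the exact permutation p-values of the GluN2 genes were 0.2 and 0.171. Between loci, the log2 of the top z differed within a library by -0.13 for Grin1 against Grin2a, 0.18 for Grin1 against Grin2b and 0.31 for Grin2a against Grin2b, with exact sign-permutation p-values of 0.586, 0.680 and 0.211 (n = 8). None of the 3 pairs passed the test.

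What separated the loci was the breadth of listed signal around the promoter. The share of the Grin2a promoter end covered by listed peaks was 15.5%, 25.0%, 11.0% and 12.0% in the controls and 12.0%, 20.25%, 19.5% and 18% in the conditioned libraries. In the Grin2a gene body it was 5.23%, 2.15%, 1.62% and 1.42% in the controls and 2.87%, 1.31%, 2.80% and 3.30% in the conditioned libraries. The lowest promoter value was above the highest body value. The difference within a library averaged 14.1 percentage points (SE 1.80, n = 8), was positive in 8 of 8 libraries, and had an exact sign-permutation p of 0.00781, the smallest that 8 libraries can give, or 0.0234 adjusted over the 3 loci. With a promoter end of 10 kb, which leaves out the listed region, the Grin2a difference was 7.47 points with an adjusted exact permutation p of 0.105. With control replicates 2 and 4 as the only controls it was 15.5 points and positive in each of the 6 libraries, with an exact permutation p of 0.0312, the smallest that 6 libraries can give, or 0.0938 adjusted.

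At Grin1 the covered share of the promoter end was 9%, 1%, 3.00% and 6.50% in the controls and 3.25%, 3.00%, 2.50% and 3.00% in the conditioned libraries. Its gene body had 1.60%, 5.60%, 1.00% and 1.00% in the controls and 2.20%, 5.00%, 2.60% and 7.60% in the conditioned libraries. The promoter end was higher in 4 libraries and lower in 4, by 0.58 points on average (SE 1.55, n = 8, exact sign-permutation p 0.711). With a promoter end of 10 kb the Grin1 difference was -2.92 points, with an adjusted exact permutation p of 0.0234, and both listed regions of this locus lie outside those 10 kb.

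At Grin2b the promoter end was covered by 1.50%, 1.00%, 1.00% and 0.75% in the controls and 2.50%, 1.00%, 8.50% and 3.00% in the conditioned libraries. The gene body had 3.96%, 2.67%, 1.85% and 1.62% in the controls and 2.10%, 1.52%, 3.90% and 3.85% in the conditioned libraries. The difference was -0.28 points (SE 0.756, n = 8, exact sign-permutation p 0.75), with 2 libraries higher at the promoter end and 6 lower. Without conditioned replicate 3, the library at 8.50%, it was -0.97 points with an adjusted exact permutation p of 0.0469. The tall peak of the listed region added little length, since it covered 50 bp in most libraries.

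The difference between promoter end and gene body was larger at Grin2a than at Grin1 by 13.5 points (SE 3.12) and larger than at Grin2b by 14.3 points (SE 1.87). Both held in 8 of 8 libraries, each with an adjusted exact sign-permutation p of 0.0117. Grin1 and Grin2b differed by 0.86 points (SE 1.83), with an adjusted exact p of 0.664. These comparisons between loci were chosen after the covered shares had been seen.

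With peaks of z of at least 30 alone, the promoter end on average exceeded the gene body at each of the 3 loci. The shares were 3.19% ± 2.06 against 0.0669% at Grin2a, 0.719% ± 0.525 against 0.1% at Grin1 and 0.25% ± 0.231 against 0.0489% at Grin2b (SD, n = 8). The adjusted exact sign-permutation p-values were 0.0117 at Grin2a, 0.0117 at Grin1 and 0.0312 at Grin2b. The difference was positive in 8 of 8 libraries at Grin2a and Grin1 and in 6 of 8 at Grin2b. At the Grin2b promoter end, control replicates 1 and 3 had 0 such peaks, while control replicate 1 had 2 in the gene body. On average the strong peaks were thus denser at the promoter end, and at Grin2a this also held for all listed peaks together.

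**Figure D3:**
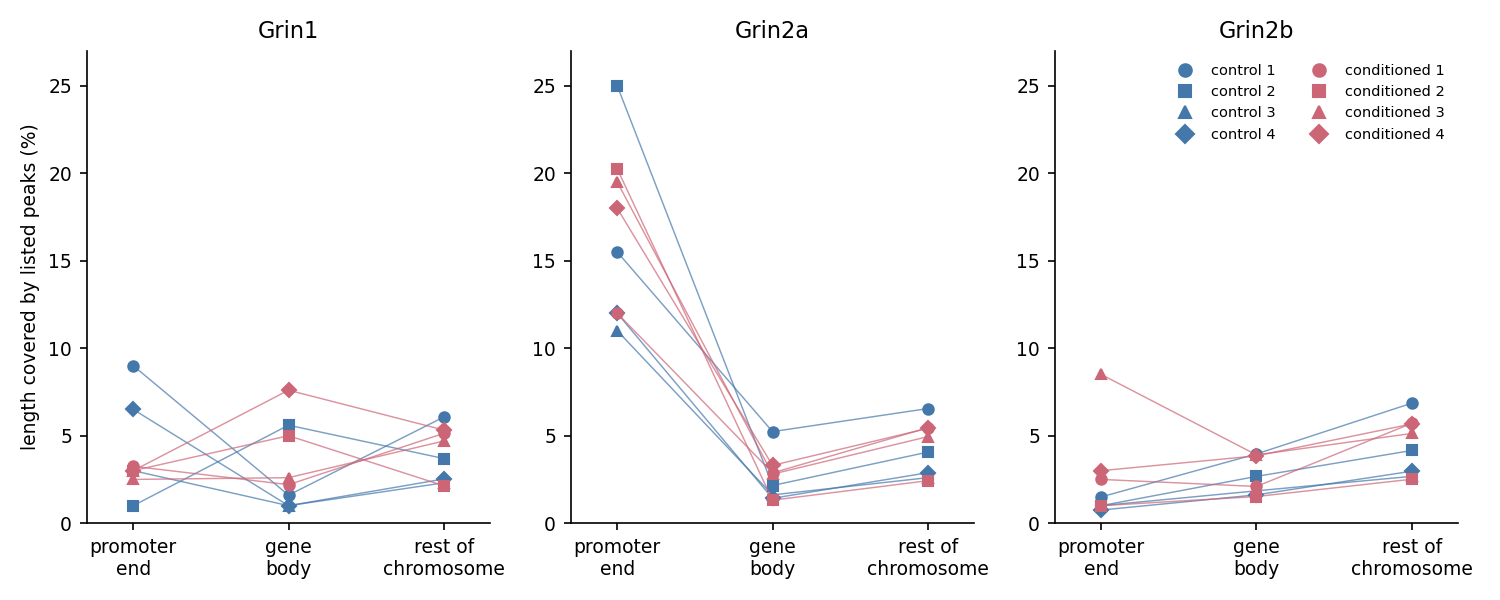
Length covered by listed peaks (percent) in the promoter end, the gene body and the rest of the chromosome, 1 point per library with a line joining the values of the same library, for Grin1, Grin2a and Grin2b. All 8 lines fell from promoter end to gene body at Grin2a, by 14.1 points on average, while lines rose and fell at Grin1 and Grin2b.

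No difference in covered share between conditioned and control mice passed the test. At the promoter ends the difference was -1.94 points (SE 1.79) at Grin1, 1.56 (SE 3.70) at Grin2a and 2.69 (SE 1.65) at Grin2b, with exact permutation p-values of 0.4, 0.686 and 0.114. In the gene bodies it was 2.05 points (SE 1.67), -0.03 (SE 0.99) and 0.32 (SE 0.805), with exact permutation p-values of 0.229, 0.971 and 0.743. After adjustment over the 6 values they ran from 0.686 to 0.971. Without conditioned replicate 3 the Grin2b promoter end difference was 1.10 points. The Grin1 promoter end and the Grin2a shares changed sign under other peak thresholds. With peaks of z of at least 30 the Grin1 promoter end difference was 0.81 points. Its exact permutation p was 0.0286, the smallest that 4 against 4 libraries can give, or 0.171 adjusted over the 6 values.

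The long bodies of the GluN2 genes had a lower covered share than the rest of their chromosomes, which includes the promoters of other genes. The Grin2a body was covered at 0.586 ± 0.0964 of the level in the rest of chromosome 16 (SD, n = 8), from 0.492 to 0.799, a log2 ratio of -0.79 (SE 0.08). The Grin2b body was covered at 0.609 ± 0.119 of the level in the rest of chromosome 6, from 0.368 to 0.761, a log2 ratio of -0.74 (SE 0.11). Both were lower in 8 of 8 libraries, each with an adjusted exact sign-permutation p of 0.0117. The test asks whether the libraries agree at a fixed window. How far windows of this length vary along a chromosome was not measured. Sites listed in at least 6 libraries stood at 114 per Mb in the Grin2a body, against 118 on chromosome 16. In the Grin2b body they stood at 95.7 per Mb, against 115 on chromosome 6. At Grin1 the log2 ratio to the rest of chromosome 2 was -0.52 (SE 0.40), with 5 libraries lower and 3 higher and an exact p of 0.219. The Grin1 body is 25.0 kb long and held 5 to 13 peaks per library, so its share is the least precise of the 3.

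The lower cover of the GluN2 bodies went with both fewer and shorter peaks. Peaks per kb gave log2 ratios of -0.25 at Grin2a and -0.34 at Grin2b, each with an adjusted exact permutation p of 0.0117. The mean peak length gave log2 ratios of -0.53 (SE 0.07) at Grin2a and -0.40 (SE 0.10) at Grin2b, lower in 8 of 8 libraries at both, each with an adjusted exact permutation p of 0.0117. Peak length was added after the covered shares had been seen. These tests, too, ask only whether the libraries agree at a fixed window. The mean length in a library was 76.3 to 144 bp in the Grin2a body and 128 to 175 bp in the rest of its chromosome. In the Grin2b body it was 86.2 to 137 bp, against 132 to 185 bp in the rest of its chromosome.

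Most sites at the NMDA receptor loci did not recur across animals. Of the 742 sites in the windows, 36 (4.85%) were listed in all 8 libraries and 416 (56.1%) in a single library, close to the 5.08% and 53.0% of the autosomes. Sites listed in all 8 libraries stood at 133 per Mb in the promoter ends, 40.0 in the Grin1 body, 23.3 in the Grin2a body and 37.0 in the Grin2b body, against 41.9 per Mb over the autosomes. Such sites had a median width of 900 bp in the Grin2a body and 477 bp in the Grin2b body, against 1301 bp over the autosomes.

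Beside the listed regions, the promoter ends held further recurrent sites of lower z. At Grin2a, the sites chr16:10000703-10003971 and chr16:9998052-9998851 were listed in all 8 libraries with a top z of 6.54 to 17.6 and 6.19 to 15.9. They lie between the listed region and the top of the window, and the first is 3269 bp wide. At Grin1, chr2:25172689-25173120 was listed in all 8 libraries with a z from 9.93 to 41.8, the highest being control replicate 4. At Grin2b, chr6:136123991-136124171 was listed in all 8 with a z from 6.01 to 51.8, the highest being conditioned replicate 2. Each of the last 2 passed a z of 30 in 1 library alone.

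The most recurrent site of the Grin1 body was chr2:25146476-25147770, with a z of 19.6, 17.4, 10.0 and 22.2 in the controls and 35.8, 15.7, 38.5 and 29.9 in the conditioned libraries. Conditioned replicates 1, 3 and 4 were above the controls and conditioned replicate 2 was below 3 of them. In RefSeq (GRCm38.p6) the genes Lrrc26 and Grin1os overlap Grin1, so this signal cannot be given to 1 of them from these files. At Grin2a the body site of the highest median z among those listed in all 8 libraries, chr16:9981545-9983401, had a z of 22.0, 22.9, 25.5 and 21.5 in the controls and 31.3, 29.9, 21.1 and 15.6 in the conditioned libraries, with the 2 groups interleaved. The corresponding Grin2b site, chr6:136043668-136045842, had a z of 16.8, 18.4, 14.7 and 22.3 in the controls and 42.5, 8.10, 25.1 and 32.1 in the conditioned libraries. There conditioned replicate 2 was the lowest of the 8 libraries and conditioned replicate 1 the highest.

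One named body site separated the groups in z. The site chr16:9825964-9827294 in the Grin2a body, 168 kb from the listed region, had a z of 16.4, 11.7, 10.8 and 12.6 in the controls and 33.5, 39.6, 33.1 and 27.8 in the conditioned libraries. Every conditioned library was above every control, and conditioned replicates 1 to 3 passed a z of 30. Over each library's 99th percentile of z, the values were 0.502, 0.168, 0.195 and 0.187 in the controls and 0.686, 0.539, 0.485 and 0.459 in the conditioned libraries, where control replicate 1 fell among the conditioned ones. A further Grin2a body site, chr16:9933902-9934701, had a z of 12.2, 11.5, 12.0 and 7.51 in the controls and 23.8, 12.9, 13.9 and 13.5 in the conditioned libraries, and was picked for this separation. These were 2 of the 36 sites listed in all 8 libraries, against a background of 3.44% over the autosomes for conditioned above control. None of the 36 had the controls above, where the background was 0.123%. After division by the 99th percentile 0 of 36 separated in either direction, against backgrounds of 0.673% and 0.182%. The counts at the loci are too small to set apart from those backgrounds.

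**Figure D4:**
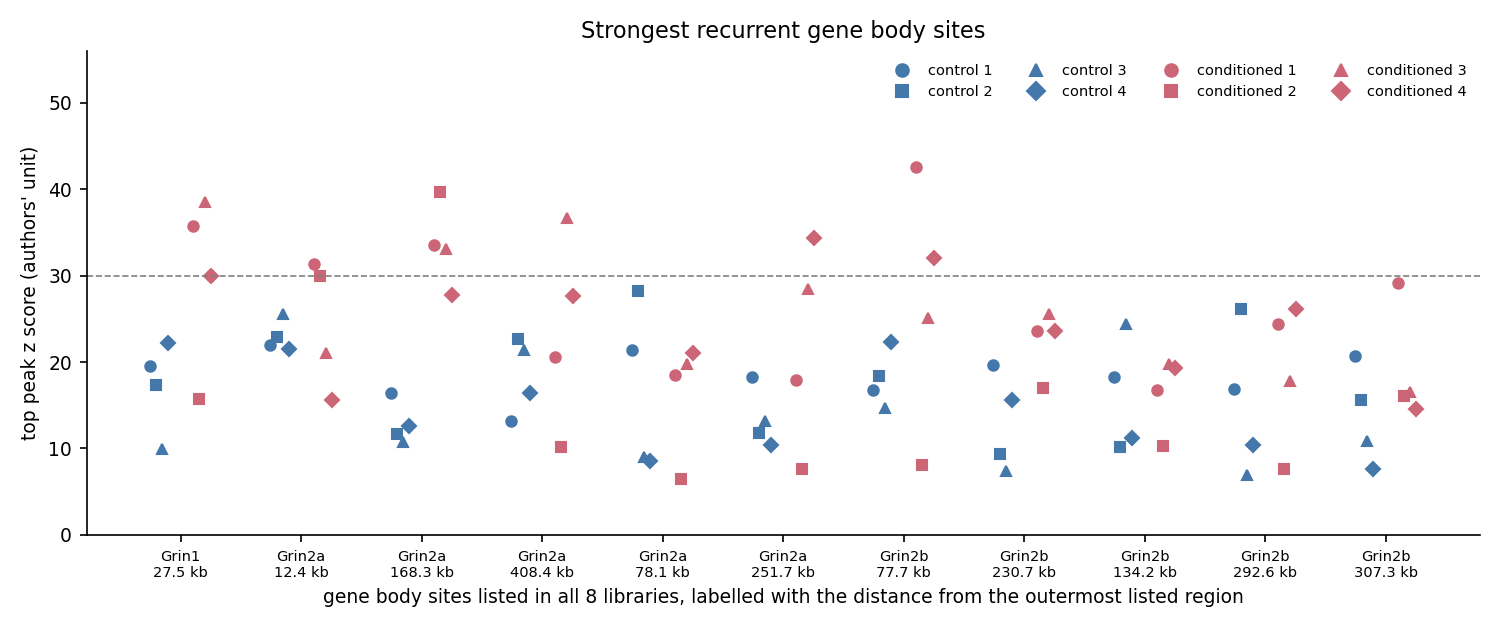
Highest z score in each library at the named gene body sites of Grin1, Grin2a and Grin2b that were listed in all 8 libraries, labelled with the distance from the outermost listed region, with control and conditioned libraries in different colours and a dashed line at a z of 30. The Grin2a site at 168 kb had all 4 conditioned libraries, from 27.8 to 39.6, above the controls, from 10.8 to 16.4.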

How the data were processed

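Sono-seq libraries from the hippocampi of 8 mice, labelled as separate animals, were compared as 4 conditioned against 4 control. Per the submitters' processing notes, Bowtie2 and the mm9 build were used. For the peak caller and the counting tool, the name is not given in the sources used here. The authors deposited raw read counts per region, not normalised, a mean z score and number of carriers per region, and 1 peak list per library with the authors' z score, whose scaling is not stated. Peak positions were read as starts of 50 bp steps, and coordinates are printed as deposited. Peaks that overlapped or lay within 50 bp were merged into sites.

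Counts of all 11304 regions were tested with edgeR 4.0.16 (quasi-likelihood, TMM, filterByExpr, which removed 0 regions, two-sided, Benjamini-Hochberg over all regions, threshold 0.05) in R 4.3.3. Library values were compared by exact two-sided permutation over 70 arrangements of 4 against 4, or over 256 sign patterns within libraries. The reads carry no molecular identifiers, so they need not be independent molecules. The 4 days of the protocol are not tied to samples, so no batch could be formed.

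Named are all regions in the windows and, per promoter end and gene body, the 5 sites listed in the most libraries, ties by median z. Alternatives were DESeq2 1.42.0 and limma 3.58.1, other scalings, filters, z minimums of 10 and 30, promoter ends of 10 and 30 kb, a replicate block, and each library left out. The members and lists were chosen with earlier results of these data known. No mm9 annotation was used here, so start sites, exons and introns were not placed.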

Additional observations from a re-analysis of the deposited data

Results flagged for a closer look

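Of 70 groups of 4 values at the NMDA receptor loci, 3 had a library far from the other 3, and chance gives such a library in about 1 in 20 groups. At the outer Grin1 region, control replicate 1 stood at 17.8 CPM with TMM factors, while the remaining controls had 2.78 to 4.85. Scaled by region totals alone, control replicate 1 had 5.91 CPM, below control replicate 2 with 7.06. In the Grin1 gene body, control replicate 2 had a covered share of 5.60%, against 1.00% to 1.60% in the other controls. At the Grin2b body site starting at 135814043, conditioned replicate 1 had a top z of 29.1, against 14.6 to 16.5 in the other conditioned libraries.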

How the results depend on the processing

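Of 388 recomputed values for 29 results, 339 kept direction and side of the threshold, 44 changed sign, none of a result that passed its test, and 2 lost a call. Among results that did not pass, 5 values gained a call, 2 of them with a changed sign. The cause was not tested for any of them. The promoter end minus gene body share of Grin2a was 7.47 points with a 10 kb promoter end and 15.5 with control replicates 2 and 4 as the only controls (chosen with earlier results known), both no longer passing, the second at the smallest p that 6 libraries can give (0.0312 before adjustment). That of Grin1 was 0.619 with z of at least 30 (passing), -2.92 at 10 kb (passing), -0.9997 at 30 kb and -0.79 with those 2 controls, and that of Grin2b was 0.201 with z of at least 30 (passing), 0.00299 in peaks per kb and 0.18 with those 2 controls. The Grin1 body against its chromosome was -0.86 with z of at least 10 (passing) and 0.24 in peaks per kb.

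Conditioned minus control shares turned at the Grin1 promoter end to 0.44 (z of at least 10), 0.81 (z of at least 30), 0.075 (peaks per kb) and 0.38 (10 kb), and at the Grin2a promoter end to -0.19 (z of at least 10), -2.12 (z of at least 30) and -1.06 (2 controls). In the Grin2a body they turned to 0.0640 (z of at least 30), 0.0128 (peaks per kb), 0.0238 (30 kb) and 0.788 (2 controls). Log2 top z turned to -0.040 at Grin1 (scaled) and -0.31 at Grin2a (10 kb). With the 2 controls, Grin1 against Grin2b was -0.36 in log2 top z and -0.97 points in promoter end minus body.

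Log2 fold changes turned at the outer Grin1 region to 0.94 (region totals), 0.16 (limma voom) and 0.34 (2 controls), and at Grin2b to 0.40 (region totals). With a replicate block they were 0.069 and 0.11, and 0 regions of the windows were called. Same-numbered libraries correlated at 0.165, 0.043, -0.060 and 0.269 in their deviations, and 1 of the 4 numbers matched best with its own, so the numbers were not taken to pair the animals.

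With each library left out in turn, the ranges were 0.13 to 0.63 (inner Grin1), -0.64 to 0.54 (outer Grin1), -0.30 to 0.50 (Grin2b) and -0.092 to 0.35 (Grin2a) in log2 fold change. In conditioned minus control share they were -3.23 to -0.56 (Grin1 promoter end), 0.97 to 3.15 (Grin1 body), 1.10 to 3.60 (Grin2b promoter end), -0.0625 to 4.60 (Grin2a promoter end), -0.43 to 0.84 (Grin2a body) and -0.035 to 0.80 (Grin2b body). In promoter end minus body they were -0.39 to 1.32 (Grin1), -0.97 to 0.034 (Grin2b) and -0.43 to 1.65 (Grin1 against Grin2b). In log2 top z they were -0.049 to 0.33 (Grin1), 0.73 to 1.20 (Grin2a), 0.57 to 1.49 (Grin2b) and -0.058 to 0.37 (Grin1 against Grin2b). The lowest read count of a region at these loci was 31, and the common dispersion between libraries over all regions was 0.281.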

Other observations

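Of 8 other glutamate receptor genes, 5 had an entry in the RefSeq promoter table (GRCm38.p6), and they differed widely in composition over the same 300 bases. Grin2c, another GluN2 subunit gene, had a GC content of 70%, with 22 CpG dinucleotides and 3 GC boxes (GGGCGG). Grin2d had 56% and 12, and the GluN3 subunit gene Grin3b had 48.3% and 3. Among the AMPA receptor genes, Gria2 had 65.7% and 26, and Gria4 had 59.7% and 17. Grin1, with 33, had the most CpG dinucleotides of the 6 promoters compared.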
